A study of Mus musculus with 4 samples.

Results

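Oxidative phosphorylation is built from genes of both genomes of the cell, and their transcripts were followed here in CD31-enriched cells of the mouse retina from Control and Diabetic samples. Members were taken by symbol: the protein and ribosomal RNA (rRNA) genes of the mitochondrial genome (mt-Nd, mt-Co, mt-Cy, mt-Atp, mt-Rnr), and nuclear genes beginning with Ndufa, Ndufb, Ndufc, Ndufs, Ndufv, Sdh, Uqcr, Cox4i, Cox5, Cox6, Cox7, Cox8 or Atp5. Ndufa4l2, Ndufaf and symbols with -ps were dropped, as were 7 symbols with fewer than 50 unique molecular identifiers (UMIs, counted RNA molecules) in all barcodes. This left 103 of the 55357 genes in the files, 15 of the mitochondrial genome and 88 nuclear. The Sdh prefix also took in assembly factors of complex II, and the nuclear members included Ndufb4c (411 UMIs) and Cox6c2 (61 UMIs), which GENCODE annotates as processed pseudogenes. Ndufb1 (53594 UMIs) is annotated there as a long non-coding RNA of a bidirectional promoter.

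The samples were 4 libraries of 10x Genomics 3′ single-cell RNA sequencing, 2 labelled Control and 2 labelled Diabetic. CD31 (PECAM1) is a surface protein of endothelial cells, and beads against it had been used to enrich live retinal cells. The labels gave no strain, age, diabetes model or duration. As no label tells if replicates were different animals, the p-values measured the spread between these libraries only. Cells were assigned to a class by marker genes, and those tested were endothelial cells, pericytes, rods, Müller glia, bipolar cells and microglia.

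The libraries held 54901304 and 29792902 UMIs in Control 1 and 2, and 58792636 and 41239892 in Diabetic 1 and 2. Endothelial cells numbered 782 and 335 in Control against 1762 and 810 in Diabetic. Rods outnumbered them in every library despite the enrichment, at 3668, 1336, 3925 and 1677 cells. Pecam1 lay at 666 and 636 CPM (UMIs per 1000000 UMIs of the class) in Control endothelial cells and at 690 and 662 CPM in Diabetic ones. As Pecam1 was a marker of the endothelial gate, its presence in that class was built in and says nothing of the enrichment. Cones were the smallest class, at 27 and 17 cells in the Control libraries and 33 and 11 in the Diabetic ones, and were not tested. Of the classes tested, microglia was the smallest, with 21 cells in Control 2, and pairs of libraries shared 3 to 9 barcodes.

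The respiratory chain passes electrons from complex I (NADH dehydrogenase) and complex II (succinate dehydrogenase) through complex III (cytochrome bc1) to complex IV (cytochrome c oxidase), and complex V (ATP synthase) uses the resulting proton gradient to make ATP. All complexes except complex II hold subunits of both genomes, and the mitochondrial rRNAs form the core of the ribosome that translates the mitochondrial mRNAs. Photoreceptors are known for a very high demand for ATP, while retinal endothelial cells are usually described as largely glycolytic.

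Some mitochondrial genes have copies in the nuclear genome that a short read cannot be told from, and these are shown first because they decide which members can be read. On chromosome 1 of GRCm38, at chr1:24611535-24616197 on the minus strand, a block of annotated pseudogenes matched 6 mitochondrial members up to within 100 bases of the transcript's end at 99% identity or more. Only matches of 200 bases or more to annotated transcripts were counted, and these 6 are the members said below to have a near-identical copy. For mt-Atp6, mt-Co2, mt-Co3 and mt-Nd4l the match was 100%. mt-Nd4 also matched a pseudogene of the block, Gm28439, at 100%. That match covered bases 1 to 876 of 1378 only, so mt-Nd4 is not among the 6. Within the matched stretch the pairs below differ at a single base, which is in capitals. The match covered bases 1063 to 1545 of the 1545 of mt-Co1, and bases 1 to 345 of the 348 of mt-Nd3. Positions are counted from 1 at the 5′ end of the mitochondrial transcript, and the mitochondrial base comes first: A1066T for mt-Co1 and its copy Gm29216, and T3C for mt-Nd3 and its copy Gm28438. The windows lie at chrM:6390-6423 and chr1:24616155-24616188, and at chrM:9459-9491 and chr1:24613087-24613119.
mt-Co1: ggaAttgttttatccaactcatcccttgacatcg
Gm29216: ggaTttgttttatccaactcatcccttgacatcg
mt-Nd3: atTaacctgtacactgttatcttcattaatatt
Gm28438: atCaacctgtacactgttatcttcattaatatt

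The copy of mt-Nd3 held far more UMIs than mt-Nd3 itself. In endothelial cells Gm28438 had 2246 and 1283 UMIs in the Control libraries, where mt-Nd3 had 5 and 17. In the Diabetic libraries the copy had 2343 and 2969 UMIs and mt-Nd3 had 9 and 8. The reverse held for mt-Co1, whose copy had 7, 3, 21 and 9 UMIs. The levels of mt-Co2, mt-Co3 and mt-Atp6 set the libraries of each group apart. In endothelial cells Control 2 was above Control 1 by 3.54, 3.58 and 4.04 times. Diabetic 2 was above Diabetic 1 by 2.12, 1.77 and 1.90 times. In the other classes the factor between the Control libraries was 3.08 or more, except for mt-Co2 in microglia, which had no UMI in Control 1. How reads that match both places were counted is not given in the sources used here. The 6 members (mt-Co1, mt-Co2, mt-Co3, mt-Atp6, mt-Nd3 and mt-Nd4l) are therefore given as uncertain.

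In endothelial cells, transcripts of the mitochondrial genome made up a smaller share of all UMIs in the Diabetic libraries, while the share of the nuclear members was slightly larger. The 15 mitochondrial members held 5.65% (95% Wilson interval 5.63 to 5.68%) of UMIs in Control 1, 4.99% (4.96 to 5.02%) in Control 2, 2.76% (2.75 to 2.77%) in Diabetic 1 and 3.40% (3.39 to 3.42%) in Diabetic 2. These intervals, like all others here, cover counting error only. The 88 nuclear members held 1.78% and 1.71% in Control against 1.93% and 1.79% in Diabetic. The ratio of mitochondrial to nuclear UMIs was 3.18 and 2.92 in Control against 1.43 and 1.90 in Diabetic, so the groups did not overlap. The mean ratio in Diabetic was 0.547 of that in Control (3.05 ± 0.18 against 1.67 ± 0.33, SD, n = 2 libraries each). With 2 libraries against 2 a permutation test cannot reach 0.05, and no test was made of the ratio.

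**Figure D1:**
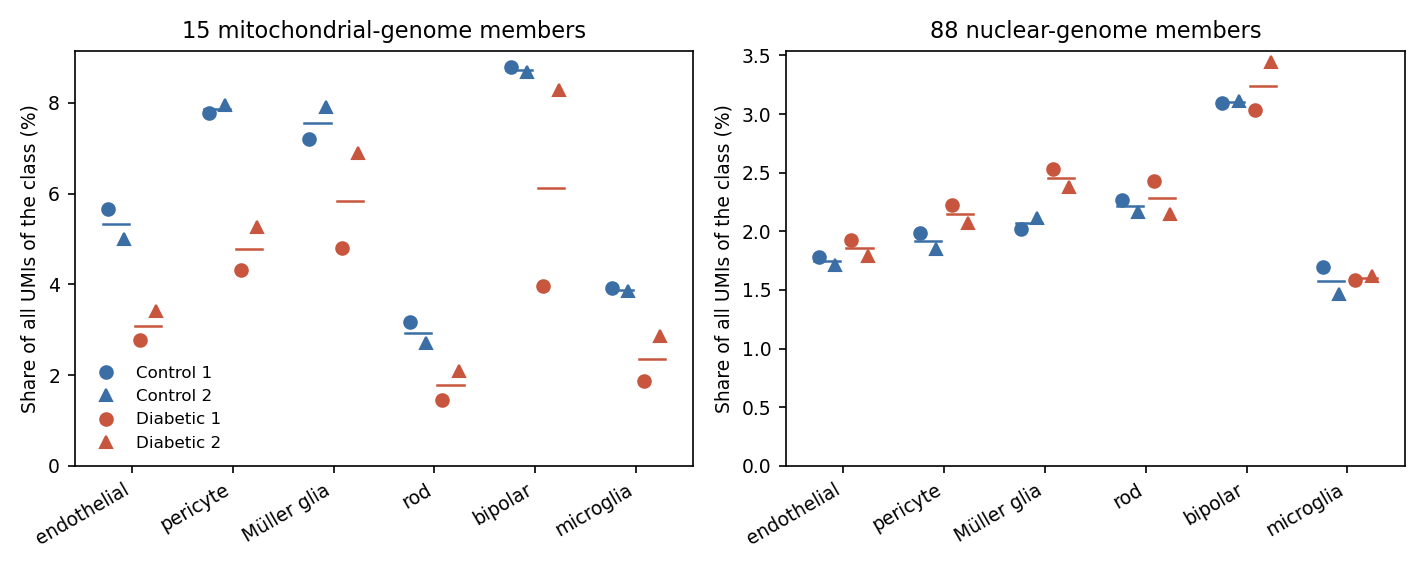
Share of all UMIs of a class (percent, y axis) held by the 15 mitochondrial members (left) and the 88 nuclear members (right) in each class (x axis). Points are libraries and short lines group means; the mitochondrial share was lower in both Diabetic libraries in every class, from 5.65% and 4.99% to 2.76% and 3.40% in endothelial cells.

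Tested gene by gene, 5 of the 14 mitochondrial members with enough counts fell in Diabetic endothelial cells and none rose (edgeR quasi-likelihood test, adjusted p under 0.05). Over all 12870 genes tested 3.41% passed (1.16% fell and 2.25% rose). The median log2 fold change of these members was -0.47, against -0.01 over all genes tested. On CPM, 8 of the 14 lay below Control in both Diabetic libraries, against 24.5% of all genes tested. The plot of CPM by library shows the order of the members, from the rRNAs down to mt-Nd3.

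The rRNAs were the most abundant members and had the largest changes among the 5 called. The large subunit rRNA, mt-Rnr2, lay at 26650 and 20958 CPM in Control against 9702 and 13186 CPM in Diabetic endothelial cells. It fell by 1.05 on the log2 scale (SE 0.17, edgeR adjusted p = 0.0120). The small subunit rRNA, mt-Rnr1, lay at 10969 and 9907 CPM in Control against 4372 and 6149 CPM in Diabetic, and fell by 0.98 (SE 0.16, edgeR adjusted p = 0.0132). Both Diabetic libraries were below both Control libraries for each rRNA, and Diabetic 1 was the lower of the pair.

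Of the complex I subunits, mt-Nd2 lay at 3224 and 3488 CPM in Control against 2059 and 2386 CPM in Diabetic, and fell by 0.59 (SE 0.12, edgeR adjusted p = 0.0279). mt-Nd4 lay at 2983 and 2957 CPM in Control against 1983 and 2183 CPM in Diabetic, and fell by 0.51 (SE 0.10, edgeR adjusted p = 0.0316). The groups did not overlap for either gene. mt-Nd1 (log2 difference -0.23, edgeR adjusted p = 0.277) and mt-Nd5 (-0.36, edgeR adjusted p = 0.167) did not pass the test, although their groups did not overlap. Neither did mt-Nd6 (-0.24), the one protein gene encoded on the other strand, or the uncertain mt-Nd4l (0.08), and mt-Nd3 had too few counts to be tested.

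mt-Cytb, the one mitochondrial subunit of complex III, lay at 6297 and 6130 CPM in Control against 4568 and 4627 CPM in Diabetic, with no overlap. It fell by 0.43 (SE 0.09, edgeR adjusted p = 0.0438). Of complex IV, the catalytic subunit mt-Co1 was at 1312 and 934 CPM in Control against 1020 and 1105 CPM in Diabetic, which overlapped (log2 difference -0.07). mt-Co2 and mt-Co3 had log2 differences of -0.99 and -1.04 that did not pass the test and that were 0.11 and 0.10 when Control 2 was left out. For complex V, mt-Atp6 likewise had a difference of -1.26, and of 0.067 without Control 2. mt-Atp8 had a difference of -0.40 (SE 0.17, edgeR adjusted p = 0.262). No near-identical copy of it was found among annotated transcripts. Its last bases, chrM:7927 to 7969, are also the first of mt-Atp6 and lie in the stretch that the copy of mt-Atp6 matched at 100%. It starts between mt-Co2 and mt-Atp6, whose copies both lie in the block, so a copy of the whole gene there is not excluded.

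**Figure D2:**
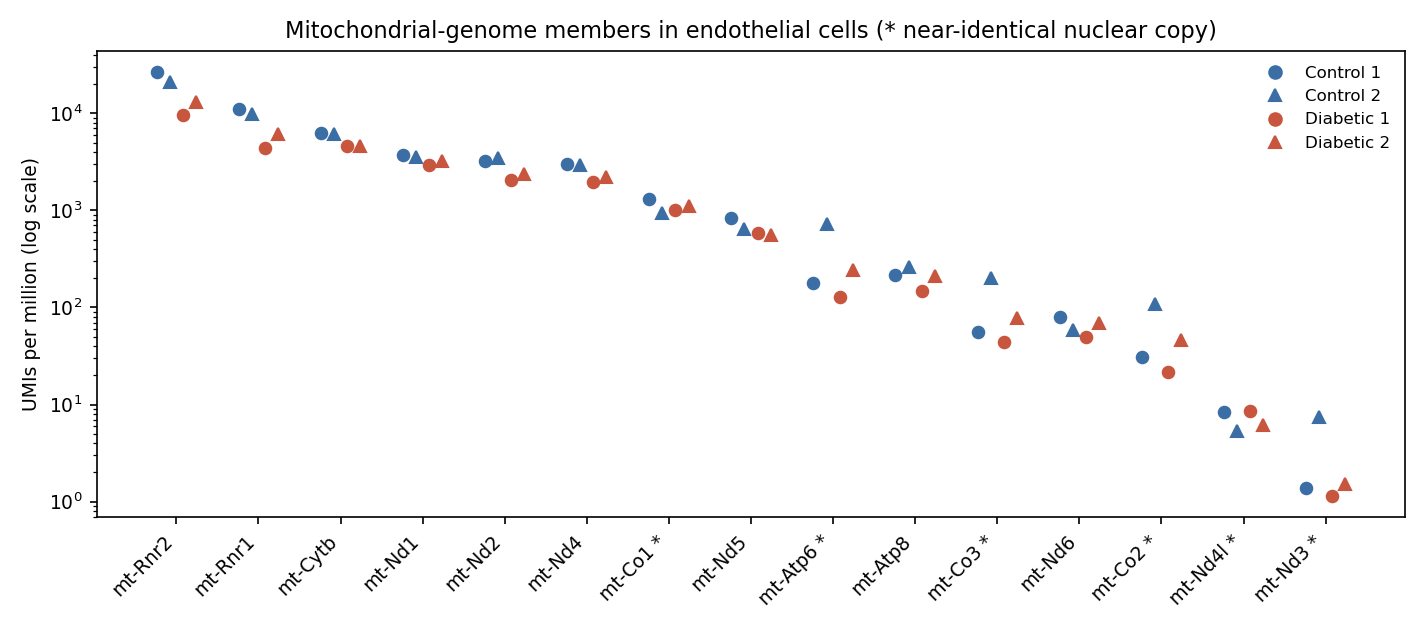
CPM (log axis) of the 15 mitochondrial members in endothelial cells, ordered by mean level, with 1 point per library; an asterisk marks a member with a near-identical nuclear copy. The rRNAs and mt-Cytb, mt-Nd2 and mt-Nd4 lie lower in both Diabetic libraries. mt-Atp6, mt-Co3 and mt-Co2 are highest in Control 2, and higher in Diabetic 2 than in Diabetic 1.

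The called members moved with single libraries, and the counts below also take in members not called in the main fit. Among members that passed only in some alternatives were the uncertain mt-Atp6, mt-Co2 and mt-Co3. Their log2 differences ranged from -1.96 to 0.067, from -1.72 to 0.11 and from -1.76 to 0.10. Without Diabetic 1 the count that fell was 3, with mt-Nd2, mt-Nd4 and mt-Cytb no longer past the threshold (edgeR adjusted p = 0.0567, 0.108 and 0.0963). It was 8 with Control 1 left out and 9 with Diabetic 2 left out, and in the first of these mt-Cytb missed the threshold (edgeR adjusted p = 0.0507). Both rRNAs passed in all 13 alternatives, with adjusted p up to 0.0144 for mt-Rnr1 and 0.0272 for mt-Rnr2.

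The rRNAs were also lower in Diabetic relative to the mitochondrial mRNAs. In endothelial cells there were 1.99 and 1.62 rRNA UMIs per mitochondrial mRNA UMI in Control, and 1.04 and 1.31 in Diabetic, without overlap. The mRNAs without a near-identical copy, among them mt-Nd4 and mt-Atp8, held 1.73% and 1.71% of UMIs in Control against 1.23% and 1.32% in Diabetic. The assay primes from poly(A), and the longest runs of A inside the rRNAs are shown in capitals, at chrM:680-734 and chrM:1463-1519 of GRCm38.
mt-Rnr1: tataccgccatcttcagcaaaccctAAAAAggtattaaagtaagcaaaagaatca
mt-Rnr2: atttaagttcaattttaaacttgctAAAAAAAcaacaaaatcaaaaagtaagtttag
The runs were 5 and 7 bases, and those of the other 13 members ranged from 3 in mt-Nd6 to 8 in mt-Nd2. Where on a transcript the reads began was not analysed here.

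The lower mitochondrial share was also seen per cell. The median cell of the endothelial class had 5.92% and 5.26% mitochondrial UMIs in Control against 2.93% and 3.61% in Diabetic, and the upper quartile was 8.27%, 7.46%, 4.15% and 5.35%. Of the barcodes in the endothelial gate, 2.37% and 2.62% in Control against 0.113% and 1.10% in Diabetic were over the limit of 20% and had been left out. In the rod gate these were 2.63% and 11.9% against 0.178% and 3.90%, which overlapped. Over all barcodes they numbered 511 of 6394 and 638 of 3091 in Control against 90 of 7991 and 405 of 3934 in Diabetic. The part of cell or library quality in the result was not tested. Median UMIs per endothelial cell were 3295 and 4621 in Control against 3158 and 4525 in Diabetic, and Malat1, a nuclear RNA, took 2.45% and 2.04% against 2.15% and 2.06% of UMIs. Rod markers summed to 0.466% and 0.281% of endothelial UMIs in Control against 0.396% and 0.252% in Diabetic, which overlapped. Erythrocyte markers summed to 0.511% and 0.494% in Control against 0.656% and 1.08% in Diabetic, and their part in the result was not tested.

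The other classes came from the same 4 libraries, so they are not independent samples of the groups. The mitochondrial to nuclear ratio was lower in both Diabetic libraries in each of them. In pericytes it was 3.91 and 4.31 in Control against 1.94 and 2.54 in Diabetic. Rods had the lowest ratios, 1.40 and 1.25 in Control against 0.601 and 0.971 in Diabetic. In Müller glia the ratio was 3.56 and 3.74 against 1.90 and 2.90, in bipolar cells 2.84 and 2.79 against 1.31 and 2.41, and in microglia 2.31 and 2.63 against 1.17 and 1.76. Diabetic 1 was below Diabetic 2 in every class. Without the rRNAs the Diabetic over Control ratio was nearer to 1, at 0.701 in endothelial cells, 0.715 in pericytes, 0.776 in rods, 0.738 in microglia, 0.873 in Müller glia and 0.964 in bipolar cells. In microglia, Müller glia and bipolar cells the libraries of the groups then overlapped.

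**Figure D3:**
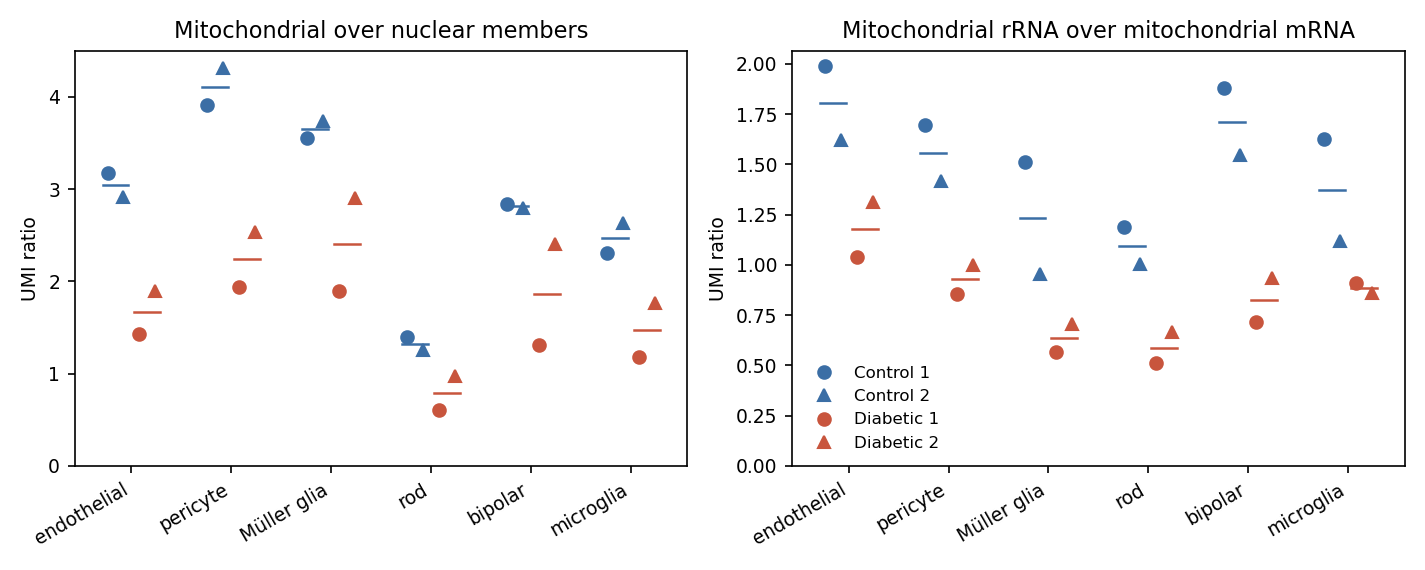
Ratio of UMIs (y axes) of the mitochondrial to the nuclear members (left) and of the mitochondrial rRNAs to the mitochondrial mRNAs (right) in each class, with 1 point per library and lines at the group means. Both ratios are lower in both Diabetic libraries in all 6 classes, from 3.18 and 2.92 to 1.43 and 1.90 for the left ratio in endothelial cells.

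In pericytes 2 of the 13 mitochondrial members tested fell, where 0.153% of all 5896 genes tested fell. These were the rRNAs. mt-Rnr2 lay at 32149 and 29881 CPM in Control against 12607 and 16843 CPM in Diabetic and fell by 1.15 (SE 0.14, edgeR adjusted p = 5.79e-05). mt-Rnr1 lay at 16681 and 16753 CPM against 7261 and 9420 CPM and fell by 1.08 (SE 0.14, edgeR adjusted p = 0.000133). All 13 tested had a negative log2 difference, with a median of -0.55 against -0.01 over all genes, and no other passed. The count was 6 without Control 1 and 7 without Diabetic 2. Without Control 2, 3 differences were positive and the median was -0.36, and without Diabetic 1 it was -0.34.

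In rods 3 of the 15 mitochondrial members fell, where 9.05% of the 17342 genes tested passed and 4.47% fell. mt-Rnr1 was at 5652 and 4921 CPM in Control against 1653 and 2828 CPM in Diabetic and fell by 1.34 (SE 0.23, edgeR adjusted p = 0.0237). mt-Rnr2 was at 11549 and 8635 CPM against 3275 and 5507 CPM and fell by 1.31 (SE 0.25, edgeR adjusted p = 0.0289). The third was mt-Nd2, which fell by 0.59 (SE 0.14, edgeR adjusted p = 0.0499) and passed in 5 of 13 alternatives. All 15 had a negative log2 difference. The rod count rested on single libraries: leaving out Control 2 gave 0, Diabetic 1 gave 1 and Diabetic 2 gave 8, and the rRNAs missed the threshold without Control 1 or Control 2, and mt-Rnr2 also without Diabetic 1.

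No mitochondrial member passed the edgeR test in Müller glia (0 of 14), bipolar cells (0 of 13) or microglia (0 of 12). At an unadjusted p under 0.05 the counts were 2, 2 and 3, all lower in Diabetic, and DESeq2 called 0, 0 and 2. Of all genes tested, 0.277%, 0.0186% and 0.598% passed in these classes, and in microglia 0.214% rose and 0.384% fell. The medians of the members were -0.26, -0.04 and -0.66, but that of Müller glia was 0.22 without Control 2, and that of bipolar cells was 0.11 without Control 2 and 0.29 without Diabetic 1. That of microglia was -0.16 without either Control 2 or Diabetic 1. In Müller glia without Control 2, 2 members fell and 1 rose, the uncertain mt-Atp6 (0.84), and 5 were higher and 3 lower at an unadjusted p under 0.05. On CPM, 3 of 14, 2 of 13 and 5 of 12 lay below Control in both Diabetic libraries, against 20.3%, 15% and 21.2% of all genes tested. The rRNAs still did not overlap: mt-Rnr2 in Müller glia was at 30650 and 25232 CPM in Control against 12251 and 19587 CPM in Diabetic, in bipolar cells at 40771 and 35811 against 10875 and 26890 CPM, and in microglia at 17156 and 13303 against 6238 and 9007 CPM. Median UMIs per microglial cell were 1498 and 1339 in Control against 4268 and 3104 in Diabetic, without overlap, and their part in the result was not tested. The summed mitochondrial mRNAs without a near-identical copy overlapped between the groups in these 3 classes. In Müller glia, mt-Cytb was at 9805 and 14732 CPM in Control against 11639 and 15615 CPM in Diabetic. The limit of 20% mitochondrial UMIs removed 37.1% and 43.3% of Müller barcodes in Control against 12.2% and 41.3% in Diabetic; with no limit the Diabetic over Control ratio in Müller glia was 0.592 in place of 0.658.

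The difference between classes was tested itself, with the library as a block. No mitochondrial member passed the test of a difference in its Diabetic to Control change between endothelial cells and rods, Müller glia or pericytes (edgeR, 0 of 15, 0 of 15 and 0 of 14 tested). At an unadjusted p under 0.05 there were 1, 4 and 0, and 0.0875%, 0.579% and 0.608% of all genes passed in these 3 tests. Without Control 2, 2 mitochondrial members passed between endothelial cells and Müller glia. For mt-Cytb the change in Müller glia was 0.55 higher on the log2 scale than in endothelial cells (SE 0.22, edgeR adjusted p = 0.403). None of the nuclear members passed either (0 of 86, 0 of 86 and 0 of 85 tested, with 6, 5 and 3 at an unadjusted p under 0.05).

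Nuclear members changed little in endothelial cells. One of 86 tested rose and none fell (edgeR; 10 had an unadjusted p under 0.05, all higher in Diabetic; DESeq2 called 0), against 2.25% rising over all genes. The log2 difference was positive for 67 and negative for 19, with a median of 0.10. On CPM, 31 of the 86 lay above Control in both Diabetic libraries, or 36.0%, against 24.0% of all genes tested, and 3 lay below. Complexes were taken from the symbols, so Ndufa4 is under complex I. The median log2 difference was 0.05 for the 39 members of complex I, 0.14 for the 8 of complex II and 0.12 for the 8 of complex III. It was 0.15 for the 14 tested of complex IV and 0.08 for the 17 of complex V.

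**Figure D4:**
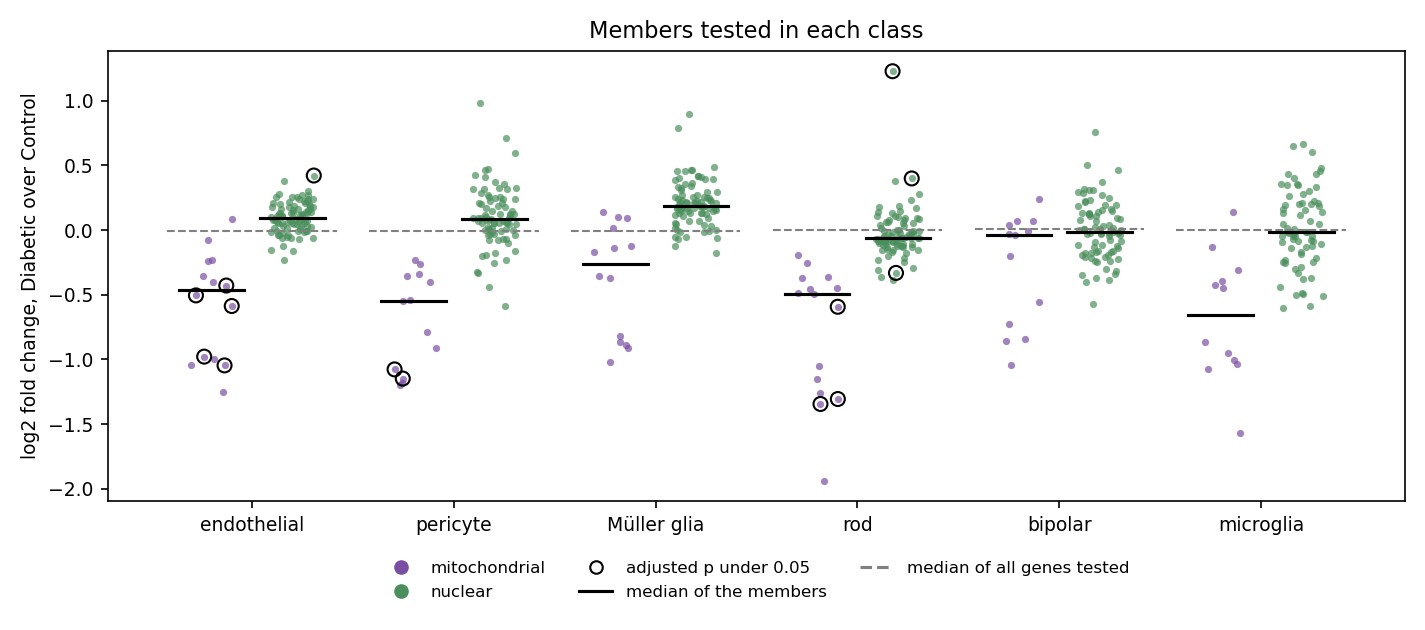
Log2 fold change, Diabetic over Control (y axis), of every member tested in each class (x axis), with rings around those at an adjusted p under 0.05, black lines at the medians of the members and dashed lines at the median of all genes tested. Mitochondrial members lie below the dashed line in most classes, with a median of -0.47 in endothelial cells, and nuclear members lie close to it except in Müller glia, at 0.19.

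The member that rose was Ndufa6, an accessory subunit of complex I. It lay at 231 and 221 CPM in Control against 315 and 289 CPM in Diabetic endothelial cells, and the groups did not overlap. It rose by 0.42 (SE 0.09, edgeR adjusted p = 0.0412), and passed in 8 of 13 alternatives. It missed the threshold without Diabetic 1 (edgeR adjusted p = 0.218) and without Diabetic 2 (edgeR adjusted p = 0.104). Its level was also above Control in both Diabetic libraries in pericytes, Müller glia and rods, where it did not pass the test.

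Its promoter, chr15:82354242-82354541 on the minus strand (RefSeq, GRCm38.p6), holds the letters TGCGCA 2 times, shown in capitals. TGCGCA is a short site of NRF1, a regulator of many respiratory genes, and it can overlap the longer palindromic motif of the same factor. The promoter of Cox7a1, a heart and muscle type subunit of complex IV described below, lies at chr7:30183921-30184220 on the plus strand and is shown beside it.
Ndufa6: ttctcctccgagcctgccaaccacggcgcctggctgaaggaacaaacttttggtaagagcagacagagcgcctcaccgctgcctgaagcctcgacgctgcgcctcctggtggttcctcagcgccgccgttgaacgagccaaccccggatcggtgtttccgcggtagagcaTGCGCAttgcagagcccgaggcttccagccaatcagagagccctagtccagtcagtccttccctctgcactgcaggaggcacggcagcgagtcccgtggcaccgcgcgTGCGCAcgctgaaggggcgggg
Cox7a1: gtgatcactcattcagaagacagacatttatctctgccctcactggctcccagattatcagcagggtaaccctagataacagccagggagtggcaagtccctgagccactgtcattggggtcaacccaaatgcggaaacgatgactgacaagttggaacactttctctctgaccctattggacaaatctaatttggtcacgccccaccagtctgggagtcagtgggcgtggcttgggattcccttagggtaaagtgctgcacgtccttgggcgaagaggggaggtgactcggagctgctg
Of the 88 nuclear members, 73 had a promoter in the table, and the letters were searched on both strands. TGCGCA was in 20 of them (27.4%) and in 8.06% of all 27025 promoters. The longer NRF1 motif was in 5 (6.85%, all promoters 0.977%), CCGGAAG, the ETS motif that GABP binds, in 19 (26.0%, all 9.12%) and AAGATGGC, which YY1 binds, in 9 (12.3%, all 2.88%). None of these 4 was in the Cox7a1 window. A match says only that the letters are there.

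The nuclear members with the most UMIs in endothelial cells showed no called change. Cox4i1 of complex IV was at 714 and 611 CPM in Control against 799 and 700 CPM in Diabetic, which overlapped, with a log2 difference of 0.18 (SE 0.11). Uqcrh, the hinge protein of complex III, was at 493 and 440 against 582 and 517 CPM, without overlap but short of the threshold (0.24, edgeR adjusted p = 0.245). Ndufa4, named for complex I and now counted with complex IV, Sdha, the flavoprotein of complex II, and Atp5j, coupling factor 6 of complex V, had differences of 0.03, -0.01 and 0.06. The highest after Ndufa6 were Atp5g2 (0.38), a gene for the ring subunit c, and the complex II assembly factors Sdhaf3 (0.30) and Sdhaf1 (0.28). The lowest were the small complex I subunits Ndufa1 (-0.23) and Ndufs5 (-0.16), Cox6b2 (-0.15) and the acyl carrier Ndufab1 (-0.12), and none of these passed.

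In Müller glia more nuclear members lay higher in Diabetic than in any other class tested, though none passed alone (edgeR 0 of 85, DESeq2 0, and 15 at an unadjusted p under 0.05, all higher). The log2 difference was positive for 74 and negative for 11, with a median of 0.19 against -0.00 over all genes tested. On CPM, 54 of the 85 were above Control in both Diabetic libraries, 63.5% against 21.2% of all genes, and none was below. Their summed share was 2.02% and 2.12% of UMIs in Control against 2.53% and 2.37% in Diabetic. The largest differences were those of Cox7a1 (0.90, SE 0.45), at 9.01 and 5.79 against 15.1 and 13.0 CPM, and Atp5g2 (0.79, SE 0.36), at 13.1 and 15.4 against 20.8 and 29.8 CPM. Cox7a1 had 6 to 16 UMIs per library. Malat1 took 6.23% and 4.69% of UMIs in Control Müller glia and 4.30% and 3.77% in Diabetic, without overlap, and its part in the result was not tested.

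Rods are the class with the most UMIs, and 2 of 87 nuclear members rose there and 1 fell, against 4.58% and 4.47% of all genes. Cox7a1 was at 6.80 and 6.65 CPM in Control against 18.7 and 15.1 CPM in Diabetic rods, well apart. It rose by 1.23 (SE 0.14, edgeR adjusted p = 0.0111), and without Diabetic 1 it missed the threshold (1.06, edgeR adjusted p = 0.0516). In the other 5 classes Cox7a1 lay at 15.1 CPM or less in every library, below the level in Diabetic 1 rods. It made up 1.53% (exact 95% interval 1.36 to 1.72%) and 1.73% (1.46 to 2.03%) of Cox7a1 and Cox7a2 UMIs in Control rods and 3.90% (3.63 to 4.18%) and 3.77% (3.43 to 4.15%) in Diabetic rods. The rest of the pair was Cox7a2, the widespread form.

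Cox4i2, the second form of subunit IV of cytochrome c oxidase, known for expression in lung and for induction under low oxygen, was at 32.2 and 28.3 CPM in Control rods and 43.5 and 42.5 CPM in Diabetic rods, without overlap. It rose by 0.40 (SE 0.08, edgeR adjusted p = 0.0342), and missed the threshold without any one of the 4 libraries (edgeR adjusted p = 0.0523 to 0.134). Müller glia and pericytes carry much more Cox4i2, and the Müller markers in the rod gate summed to 0.061% and 0.057% in Control against 0.069% and 0.079% in Diabetic, while pericyte markers summed to 0.105% and 0.106% against 0.091% and 0.083%. Their part in the result was not tested. Ndufa1 fell by 0.33 (SE 0.06, edgeR adjusted p = 0.0307), from 197 and 202 CPM to 174 and 167 CPM, and it too missed the threshold without any one library.

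The direction of the nuclear members in rods depended on the scaling: 26 log2 differences were positive and 61 negative with TMM factors, and 61 were positive and 26 negative with library totals alone. Their median was -0.06 with TMM and 0.04 without, where the median of all genes tested in rods was 0.00 and 0.11, so that it lay below the median of all genes under both scalings. Leaving out Diabetic 2 also turned the direction: 54 were positive and 34 negative, with a median of 0.030 against 0.0051 over all genes. On CPM, 24 of 87 (27.6%) were above Control in both Diabetic libraries, against 41.6% of all genes tested. Without TMM 5 rose and none fell.

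Pericytes, bipolar cells and microglia had no called nuclear member (edgeR 0 of 80, 81 and 70, and DESeq2 0 in each). At an unadjusted p under 0.05 there were 3 in pericytes, 2 of them higher, and 0 in the others. In pericytes 59 of 80 differences were positive, with a median of 0.09, and 29 of 80 (36.2%) were above Control in both Diabetic libraries, against 24.1% of all genes. The largest there were Sdhd (0.98, SE 0.36), a membrane anchor of complex II, at 33.6 and 51.8 CPM against 71.4 and 104 CPM, and Ndufs8 (0.71, SE 0.27), an iron-sulfur subunit of complex I. In bipolar cells they were Cox4i2 (0.76, SE 0.38) and Uqcrc1 (-0.57, SE 0.30), a core protein of complex III. In microglia they were Ndufs4 (0.66, SE 0.65) and Ndufb10 (0.65, SE 0.37), both of complex I. The medians in bipolar cells and microglia were -0.01 and -0.02, and ranged from -0.14 to 0.12 and from -0.06 to 0.12 over the alternatives. On CPM, 18 of 81 in bipolar cells were above Control in both Diabetic libraries and 11 below, against 19.8% and 15% of all genes, and in microglia 10 of 70 were above and 12 below, against 17.2% and 21.2%.

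Cox8a, the widespread form of subunit VIII of cytochrome c oxidase, was the one nuclear member that lay above Control in both Diabetic libraries in all 6 classes, and it passed the test in none. In endothelial cells it was at 498 and 519 CPM in Control against 649 and 537 CPM in Diabetic (log2 difference 0.23, SE 0.10, edgeR adjusted p = 0.297). In Müller glia it was at 694 and 830 against 1170.1 and 957 CPM (0.47, SE 0.17), and in pericytes at 830 and 814 against 1059.8 and 1099 CPM (0.32, SE 0.16). Of the 70 nuclear members tested in all 6 classes this was 1 (1.43%), and of all 1698 genes so tested 0.589% lay above in every class. The same 4 libraries underlie all these values. Cox8b, the muscle form, held 3.53% or less of the pair in every class and library.

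Cox4i2 and Cox6b2 differed in their share between cell classes, which was not tested. Cox4i2 made up 35.6% (exact 95% interval 31.1 to 40.2%) and 45.5% (39.7 to 51.5%) of Cox4i1 and Cox4i2 UMIs in Control pericytes and 42.1% (37.7 to 46.6%) and 39.6% (34.7 to 44.7%) in Diabetic ones. In Müller glia it made up 39.2% and 41.3% in Control against 35.3% and 37.5% in Diabetic, which did not overlap. In endothelial cells it was 8.34% to 10.9%, in rods 4.62% to 6.71%, in bipolar cells 4.24% to 7.91% and in microglia 0% to 1.38%. The order of pericytes and Müller glia could not be told, and both stood above all other classes in every library.

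Cox6b2, known as a testis form of subunit VIb, was at its highest in Müller glia, at 25.8% and 25.7% of Cox6b1 and Cox6b2 UMIs in Control against 20.4% and 23.6% in Diabetic. It was 2.94% to 4% in pericytes, 3.15% to 3.93% in endothelial cells, 4.03% to 6.13% in rods, 1.44% to 6.51% in bipolar cells and 0% to 4.55% in microglia. The CPM of Cox6b2 in Müller glia was 127 and 145 in Control against 123 and 140 in Diabetic, so its level overlapped between the groups. In rods it was at 14.1 and 15.4 against 21.7 and 19.2 CPM, without overlap (0.38, SE 0.11, edgeR adjusted p = 0.0739).

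**Figure D5:**
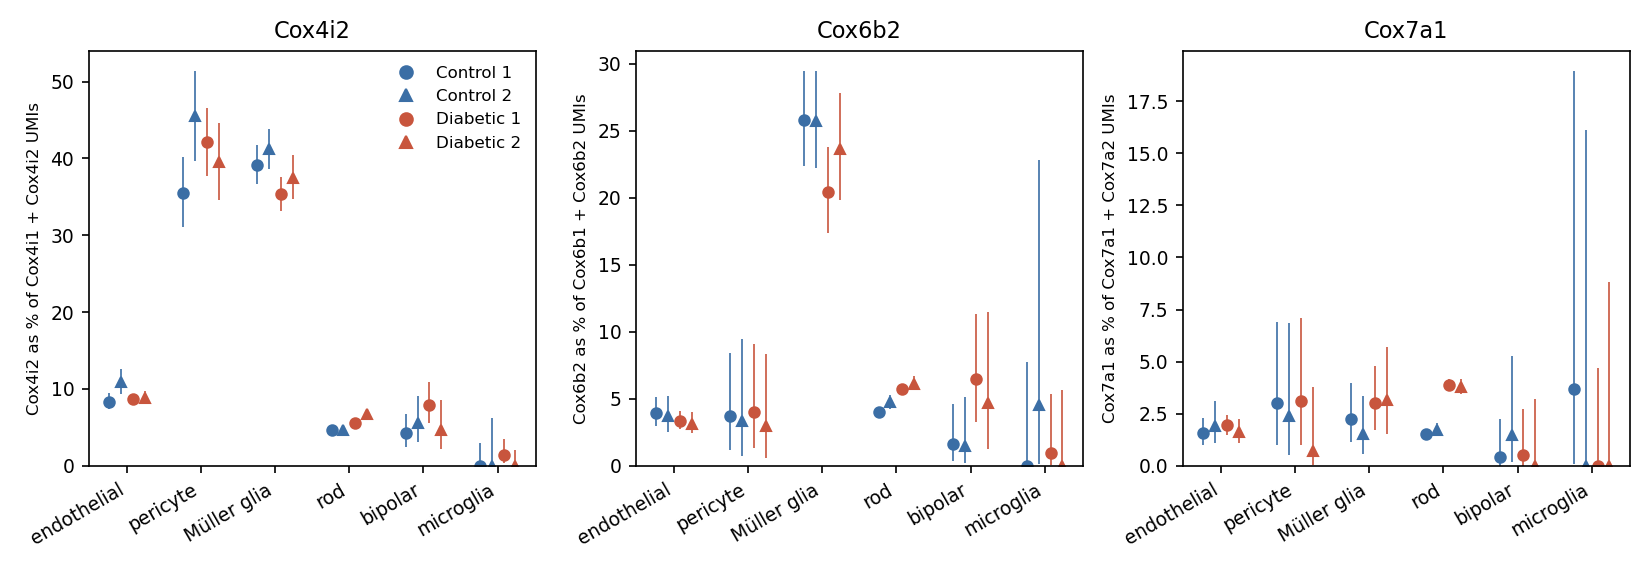
Share of the second isoform in the UMIs of its pair (percent, y axes) for Cox4i2, Cox6b2 and Cox7a1 in each class (x axis), with 1 point per library and exact 95% binomial intervals. Cox4i2 stands high in pericytes and Müller glia (35.3% to 45.5%), Cox6b2 in Müller glia alone (20.4% to 25.8%), and Cox7a1 is higher in Diabetic than in Control rods.

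Cox6a2, the heart and muscle form of subunit VIa, had only 10 UMIs in all barcodes and so was not a member, but 9 of them were in the 154 cells of the microglia gate. There it made up 0 of 32, 1 of 14, 4 of 80 and 4 of 41 UMIs of Cox6a1 and Cox6a2 in Control 1, Control 2, Diabetic 1 and Diabetic 2. In endothelial cells it had none among 958, 547, 2420 and 1495 UMIs of the pair, which allows a share of up to 0.384%, 0.672%, 0.152% and 0.246% (exact 95% limits). The genes for the ring subunit c of ATP synthase encode the same mature protein. In endothelial cells Atp5g1 held 40.4% to 46.2%, Atp5g3 49.2% to 53.5% and Atp5g2 3.38% to 6.05% of their UMIs.

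Genes that act on the complexes from outside were given by fixed lists. In endothelial cells, where 3.41% of all genes tested passed and 2.25% rose, none passed of 39 assembly factors, 28 genes of mitochondrial transcription and RNA handling, 77 of the mitochondrial ribosome, 12 transcriptional regulators and 16 of the tricarboxylic acid cycle, with medians between -0.01 and 0.06. Of 18 carriers and uncoupling genes 1 rose: Ucp2, an inner membrane carrier of the uncoupling protein family, lay at 141 and 168 CPM in Control against 345 and 382 CPM in Diabetic. It rose by 1.25 (SE 0.12, edgeR adjusted p = 0.000843). Lrpprc, which stabilises mitochondrial mRNAs and was chosen here after its values were seen, was at 24.1 and 30.5 against 16.8 and 17.1 CPM in endothelial cells, short of the threshold (-0.66, edgeR adjusted p = 0.0835).

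In rods, where 4.58% of all genes tested rose and 4.47% fell, genes of 4 of the lists passed. Of 39 assembly factors 1 rose and 4 fell, among them Ndufaf5 (-0.65) and Ndufaf1 (-0.40) of complex I, and Cox19 (-0.31), while Cmc1, an assembly gene of complex IV, rose (0.50). Of 28 genes of mitochondrial transcription and RNA handling 2 rose and 4 fell. Lrpprc fell there by 0.55 (SE 0.10, edgeR adjusted p = 0.0278), from 79.0 and 91.6 CPM to 57.6 and 67.8 CPM, Fastkd2 by 0.55 and the protease gene Lonp1 by 0.43, and Mterf1a rose by 0.46. Of 78 genes of the mitochondrial ribosome 1 rose (Mrpl23, 0.46) and 8 fell, led by Mrps6 (-0.52), Mrpl45 (-0.47) and Mrps22 (-0.47). Of 13 regulators the coactivator gene Pprc1 fell by 0.75 and Yy1 by 0.26. No gene of these lists passed in the other 4 classes. The list genes were counted in the main fit only. Over all 17342 genes tested in rods, 794 rose and 776 fell with TMM, and 1438 rose and 283 fell with library totals alone.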

How the data were processed

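Per the labels, cells were 10x Chromium 3′ libraries of CD31-enriched live retinal cells. The authors deposited raw counts, that is UMIs per gene and called cell, made with Cell Ranger 7.0.0 per the file headers. STAR 2.7.10b and mm10 are named in the submitters' processing notes. No normalization had been applied. How multi-mapped reads were counted is not given in the sources used here.

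Barcodes needed 500 UMIs, 300 genes and a mitochondrial share of 20% or less, which left 5868, 2438, 7891 and 3519. A barcode joined a class when the class's markers reached 0.3 of that class's own typical level with at least 3 markers detected, and all other classes stayed under 0.3 (rods 0.5); 893, 418, 1546 and 702 joined none. These limits were set after marker levels had been seen, and 7, 6, 17 and 13 endothelial barcodes lay near the limit. Barcodes with markers of 2 classes were removed as possible doublets in this way and no doublet caller was run. UMIs were summed per library and class, and a class was tested where each library gave 20 cells or more. Levels are CPM without a pseudocount. Tests were edgeR 4.0.16 quasi-likelihood (TMM, filterByExpr, two-sided) in R 4.3.3, with Benjamini-Hochberg adjustment over all genes tested and a threshold of 0.05. DESeq2 1.42.0 was an alternative. The script was checked on simulated data. Other alternatives were no filter, no TMM, other mitochondrial limits, a stricter gate, 1000 UMIs, each library left out and the replicate number as a block. Nuclear copies were searched with BLAST 2.17.0 in GENCODE M21 transcripts (GRCm38); promoters were from RefSeq (GRCm38.p6).

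Named genes were every mitochondrial member; in endothelial cells the nuclear members called, the 4 highest, the 4 lowest and the most abundant of each complex; elsewhere members called in 2 or more classes and up to 2 per class with the largest change; the isoform pairs; and up to 4 called genes of each other list. Ndufa1 in rods and Lrpprc in endothelial cells were added after their values were seen. Members and lists were chosen with earlier results of these data known. The nuclear members Cox7c, Ndufb6 and Uqcrc2 overlap or resemble another transcript and their counts are uncertain.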

Additional observations from a re-analysis of the deposited data

How the results depend on the processing

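The small classes held 21 to 62 microglia and 28 to 72 bipolar cells per library, and changes of the size seen in endothelial cells could be missed. The part of depth in their counts was not tested. The 6 members with near-identical copies and the groups of 2 libraries limit every count. The mean mitochondrial to nuclear ratio of Diabetic was below the mean of Control in each of the 6 classes under each alternative run. Leaving out each library in turn gave Diabetic over Control ratios of 0.470 to 0.623 in endothelial cells, 0.472 to 0.617 in pericytes, 0.520 to 0.795 in Müller glia, 0.453 to 0.733 in rods, 0.464 to 0.856 in bipolar cells and 0.476 to 0.714 in microglia. Without the rRNAs they were 0.701, 0.715, 0.873, 0.776, 0.964 and 0.738 in that order. The libraries of the groups then overlapped in Müller glia, bipolar cells and microglia. In bipolar cells Diabetic 2, at 1.24, lay above both Control libraries, at 0.986 and 1.10.

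Counts of mitochondrial members that fell moved more, and they can take in the uncertain members. With no filter on low counts they were 10 in endothelial cells, 4 in pericytes, 5 in Müller glia, 13 in rods, 2 in bipolar cells and 2 in microglia. With each library left out they ranged from 3 to 9, 2 to 7, 0 to 4, 0 to 8, 0 to 5 and 0 to 2. A limit of 10% mitochondrial UMIs gave 3 in endothelial cells, and in microglia DESeq2 and library totals each gave 2. The endothelial median ranged from -0.69 to -0.35 with a library left out. Nuclear members that rose in endothelial cells numbered 0 with DESeq2, the 10% limit or the stricter gate, and 0 to 2 with a library left out; in Müller glia 0 to 2. In rods those that rose numbered 5 without TMM, 4 with no filter, 1 with the stricter gate and 0 to 1 with a library left out, and those that fell 3 with DESeq2, 0 without TMM, 5 with no filter and 0 to 2. In Müller glia 0 to 1 mitochondrial members rose with a library left out. In Müller glia against endothelial cells, 0 to 2 mitochondrial members passed. The cause was not tested.

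Signs turned for members that did not pass: in endothelial cells mt-Nd4l was -0.12 with no mitochondrial limit and -0.15 to 0.49 with a library left out, mt-Nd6 -0.50 to 0.024, mt-Co1 -0.28 to 0.19, mt-Co2 -1.72 to 0.11, mt-Co3 -1.76 to 0.10 and mt-Atp6 -1.96 to 0.067.

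The labels give both groups replicate numbers 1 and 2 but do not say that a number marks a shared batch, so pairing was only an alternative. The correlation of the deviations of same-numbered libraries over genes was 0.167 in endothelial cells and ranged from 0.0597 in bipolar cells to 0.451 in rods. With the replicate block, 10, 8, 3, 14, 2 and 3 mitochondrial members fell, and in rods 7 nuclear members rose and 7 fell.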
